A study of Saccharomyces cerevisiae with 6 samples.

Results

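IMP dehydrogenase oxidizes IMP to XMP, the first step that commits a purine to the guanine nucleotides, and GMP synthase then aminates XMP to GMP. In *S. cerevisiae* the first enzyme is encoded by the paralogs *IMD2*, *IMD3* and *IMD4* and the second by *GUA1*. These 4 genes, chosen by name, were described out of the 6256 genes that had a probe on the arrays. They were chosen with their difference between the 2 strains already known, so that difference is described here without a test.

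The arrays compared a PHO13 deleted strain, YΔGP/XK/XI, with its control strain, YΔG/XK/XI, 9 h into fermentation of 50 g/L xylose, with 3 arrays for each strain. Both strains descend from the haploid strain YPH499, which has *ura3*, *trp1*, *lys2*, *leu2*, *his3* and *ade2* alleles. Both lack the aldose reductase gene *GRE3*, overexpress the xylulokinase gene *XKS1* from the *TDH3* promoter, and carry integrated copies of a xylose isomerase gene from *Orpinomyces*. In YΔGP/XK/XI the phosphatase gene *PHO13* was replaced by *KanMX*. The cells fermented in rich YP medium with little oxygen. Each strain is a single construct, and the sources used here do not give the number of clones behind it.

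Because the host carries *ade2*, it cannot complete purine synthesis from the beginning. Its purines must come from the medium, for example as adenine or hypoxanthine. *IMD2* is known as the paralog whose transcription responds to guanine nucleotides. When GTP is plentiful, RNA polymerase II starts at upstream sites and the short transcripts are ended early by the Nrd1-Nab3-Sen1 complex. When GTP is scarce, it starts further downstream and makes the mRNA. The *IMD2* enzyme resists mycophenolic acid, the drug that inhibits IMP dehydrogenase, whereas *IMD3* and *IMD4* supply the enzyme in cells without the drug. *IMD1*, a further copy near a chromosome end, is a broken gene in the standard laboratory strain.

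The arrays themselves differed in brightness. The 75th percentile of the spot intensities was 3782 to 7095 scanner units for YΔGP/XK/XI and 4631 to 7632 for YΔG/XK/XI, and no spot was saturated. The *PHO13* probe exceeded background on 0 of the 3 YΔGP/XK/XI arrays and on all 3 YΔG/XK/XI arrays, and was at least 82.4-fold lower in YΔGP/XK/XI. The *GRE3* probe exceeded background on 0 of the 6 arrays, and *XKS1* had a log2 difference of -0.45 (adjusted p = 0.0112, limma) although both strains overexpress it. Runs 1 and 2 of both strains shared slide 1 and run 3 of both was on slide 2. The values below are normalized log2 signals, the mean log2 signal over the spots of a probe minus the log2 of the 75th percentile of the array, and a log2 difference is the mean of YΔGP/XK/XI minus that of YΔG/XK/XI. Genes other than the members were tested and were called higher or lower at an adjusted p under 0.05. A probe measures RNA of the whole culture, so a lower level in every cell and fewer cells with the RNA cannot be told apart.

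*IMD2* (YHR216W) was the member with the largest difference. On the YΔGP/XK/XI arrays its normalized log2 signal was -5.40, -5.71 and -5.29. On the YΔG/XK/XI arrays it was -3.94, -4.09 and -3.96. The lowest YΔG/XK/XI array lay 1.20 above the highest YΔGP/XK/XI array, so the strains were far apart. The means were -5.47 ± 0.22 in YΔGP/XK/XI and -3.99 ± 0.08 in YΔG/XK/XI (SD, n = 3 each). The log2 difference of -1.47 (standard error 0.11) left 36.1% of the YΔG/XK/XI signal, or 2.77-fold less. Only 7 of the 6256 genes had a more negative log2 difference. The difference of *IMD2* was 8.87 times the pooled SD between its replicates. Like the rank, this only describes a gene that was chosen with its difference known.

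The lower *IMD2* signal was visible before any scaling. The geometric mean intensity of its spots was 132, 135 and 96.9 scanner units on the YΔGP/XK/XI arrays and 498, 397 and 298 on the YΔG/XK/XI arrays. All 7 spots of the probe were well above background on every array. The brightest single *IMD2* spot of YΔGP/XK/XI reached 153 units and the dimmest of YΔG/XK/XI was 263 units. The probe was dim in YΔGP/XK/XI, where the lowest signal among probes well above background was 25.1 to 56.0 units. The normexp alternative started from the median raw and background intensities, modelled the background and added an offset of 50 units to every signal. With it the log2 difference of *IMD2* was -1.02. The change of input signal, the background model and the offset were not tested apart.

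**Figure D1:**
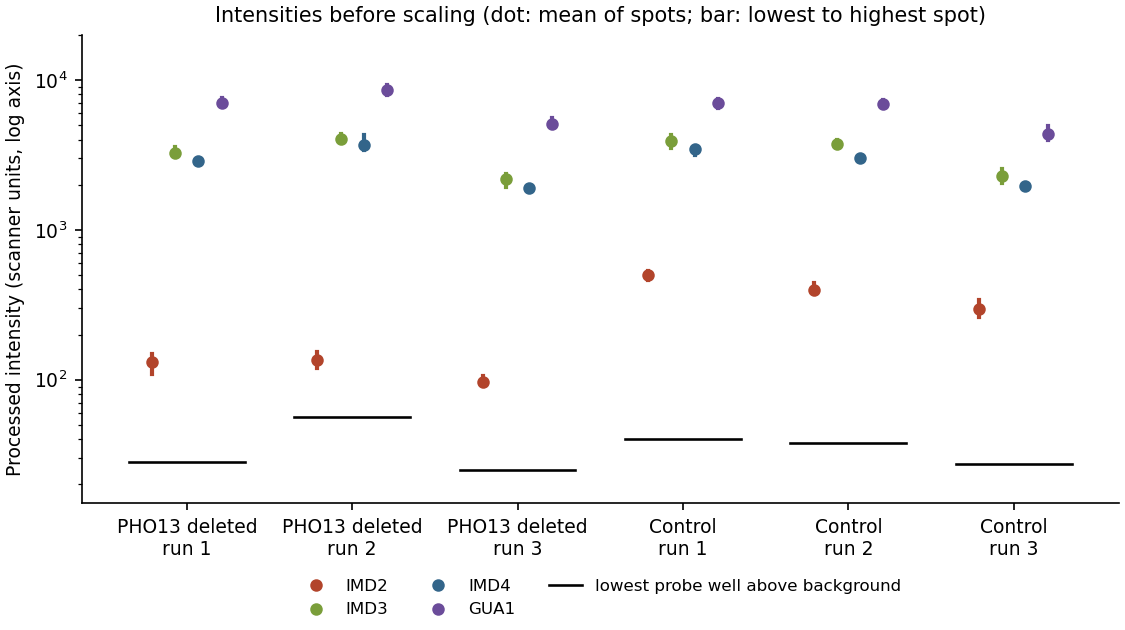
Processed intensity in scanner units (log axis) of the 4 members on each array before scaling. Dots are geometric means over the spots of a probe, bars run from the lowest to the highest spot, and black lines mark the lowest probe well above background. Within a gene, *IMD2* lies at 96.9 to 135 units in YΔGP/XK/XI and at 298 to 498 units in YΔG/XK/XI, while levels of different probes cannot be compared.

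The other paralogs differed in the opposite direction and by much less. *IMD3* (YLR432W) had normalized log2 signals of -0.78, -0.82 and -0.80 in YΔGP/XK/XI. In YΔG/XK/XI they were -0.97, -0.86 and -1.03. The strains were separated, but by a gap of only 0.04, between run 2 of each strain. The means were -0.80 ± 0.02 in YΔGP/XK/XI and -0.95 ± 0.08 in YΔG/XK/XI (SD, n = 3 each), a log2 difference of 0.15 (standard error 0.07). That is 111% of the YΔG/XK/XI signal, a small difference that 1844 other genes exceeded in the same direction. With each array scaled to its median it was 0.09.

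*IMD4* (YML056C), the paralog whose gene contains an intron, gave very even values. Its normalized log2 signals were -0.962, -0.951 and -0.997 in YΔGP/XK/XI, against -1.14, -1.15 and -1.24 in YΔG/XK/XI. The gap between the strains was 0.15, wider than for *IMD3*. The means were -0.97 ± 0.02 in YΔGP/XK/XI and -1.18 ± 0.05 in YΔG/XK/XI (SD, n = 3 each). The log2 difference was 0.21 (standard error 0.07), 116% of the YΔG/XK/XI signal.

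*GUA1* (YMR217W), which encodes GMP synthase, had the largest positive difference of the 4 members. Its normalized log2 signals were 0.34, 0.27 and 0.43 in YΔGP/XK/XI. They were -0.13, 0.03 and -0.08 in YΔG/XK/XI. The lowest YΔGP/XK/XI array lay 0.25 above the highest YΔG/XK/XI array. The means were 0.34 ± 0.08 in YΔGP/XK/XI and -0.06 ± 0.08 in YΔG/XK/XI (SD, n = 3 each), a log2 difference of 0.41 (standard error 0.08) or 133% of the YΔG/XK/XI signal. A more positive difference was found in 628 genes.

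**Figure D2:**
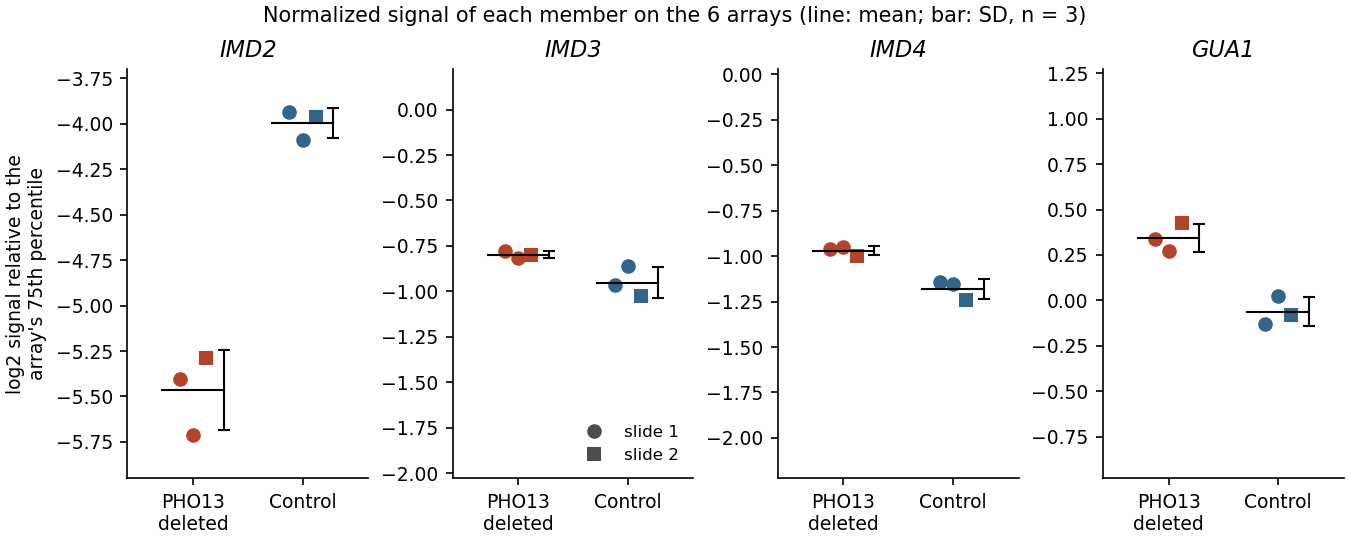
Normalized log2 signal of each member (y axes of equal span), with YΔGP/XK/XI left of YΔG/XK/XI. Points are arrays, circles are slide 1 and squares slide 2, lines are means and bars SD (n = 3). The log2 differences are -1.47 for *IMD2*, 0.15 for *IMD3*, 0.21 for *IMD4* and 0.41 for *GUA1*.

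No member had overlapping strains, which was also true of 46.6% of all genes, 25.0% with YΔGP/XK/XI higher and 21.5% with it lower. Their median log2 difference was 0.18, with 3 of the 4 higher in YΔGP/XK/XI, and the median over all genes was 0.01. The direction of each member was the same on both slides. On slide 2, where each strain had 1 array, the log2 difference was -1.33 for *IMD2*, 0.23 for *IMD3*, 0.24 for *IMD4* and 0.51 for *GUA1*. On slide 1 it was -1.54 for *IMD2*, 0.12 for *IMD3*, 0.19 for *IMD4* and 0.36 for *GUA1*.

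The spread between replicates did not enter the choice of the members. It was small for the 3 members that were higher. The pooled SD was 0.04 for *IMD4*, which put it above 4.01% of all genes, 0.06 for *IMD3* and 0.08 for *GUA1*, against a median of 0.11 over all genes. The pooled SD of *IMD2* was 0.17, above 80.3% of all genes. Most of it came from YΔGP/XK/XI, in which run 2 was the lowest array. The set of all genes includes probes of every signal level, and no member was compared with probes of similar signal. Between the 7 spots of the *IMD2* probe the SD was 0.08 to 0.15 on the log2 scale on the YΔGP/XK/XI arrays and 0.07 to 0.11 on the YΔG/XK/XI arrays.

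Ratios between probes on the same array do not depend on scaling that shifts every log2 signal of the array equally. They show which members changed unequally. The log2 ratio of *IMD2* over *IMD3* was -4.67 ± 0.21 in YΔGP/XK/XI and -3.04 ± 0.16 in YΔG/XK/XI (SD, n = 3 each), a change of -1.62. The change of *IMD2* over *IMD4* was -1.68 and that of *IMD2* over *GUA1* was -1.88. In these 3 ratios the arrays of the strains were widely separated. The log2 ratio of *IMD3* over *IMD4* was 0.17 ± 0.03 in YΔGP/XK/XI and 0.23 ± 0.06 in YΔG/XK/XI (SD, n = 3 each). Its change of -0.06 was about as large as its pooled SD of 0.05, and the arrays overlapped, so a difference between *IMD3* and *IMD4* was not resolved. *GUA1* differed by more than both. The change was -0.25 for *IMD3* over *GUA1* (pooled SD 0.07) and -0.20 for *IMD4* over *GUA1* (pooled SD 0.10). The strains did not overlap in either ratio, but in the second the gap was narrow, between run 2 of each strain.

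**Figure D3:**
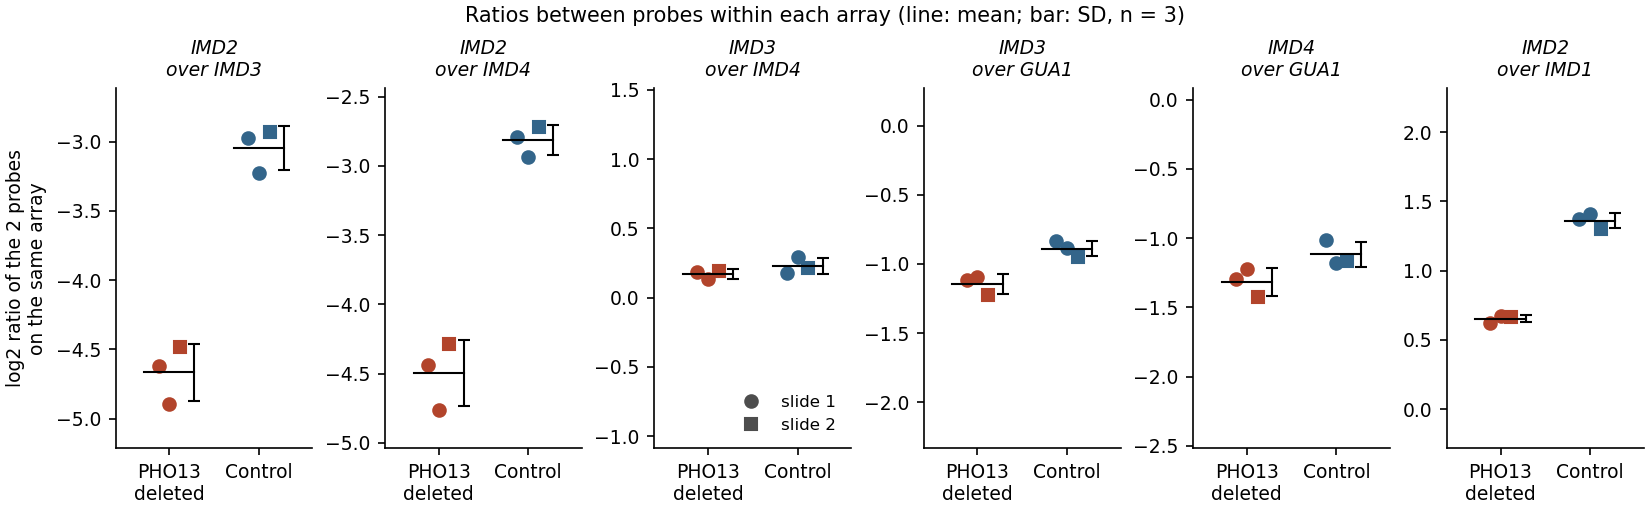
Log2 ratio of pairs of probes on the same array, with YΔGP/XK/XI left of YΔG/XK/XI (y axes of equal span). Points are arrays, lines are means and bars SD (n = 3). The ratios of *IMD2* to *IMD3*, *IMD4* and *IMD1* change by -1.62, -1.68 and -0.71, whereas *IMD3* over *IMD4* changes by -0.06 with overlapping arrays.

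The *IMD1* locus, which was not a member, has 2 probes on the array, because its sequence is annotated as a pair of open reading frames. The first (YAR073W) had normalized log2 signals of -6.02, -6.38 and -5.95 in YΔGP/XK/XI, against -5.31, -5.50 and -5.26 in YΔG/XK/XI. It fell, with a log2 difference of -0.76 (standard error 0.12, adjusted p = 0.00273, limma). The second (YAR075W) fell by 0.83 (standard error 0.14, adjusted p = 0.00391, limma). Both probes were well above background on the 6 arrays. The call of the first was lost with the normexp background correction and its offset (log2 difference -0.35, adjusted p = 0.0727), and the second was then at -0.37 (adjusted p = 0.0268). The log2 ratio of *IMD2* over the first *IMD1* probe was 0.65 ± 0.03 in YΔGP/XK/XI and 1.36 ± 0.06 in YΔG/XK/XI (SD, n = 3 each), a change of -0.71. *IMD1* and *IMD2* are nearly identical in sequence, and probe sequences were not used here. RNA of one locus that binds the probes of the other therefore cannot be told apart from a lower level at both loci. Binding of RNA of one of *IMD2*, *IMD3* and *IMD4* to the probe of another was not tested.

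The genes around the members on the chromosomes were read from the R64 assembly. *PHO12*, an acid phosphatase gene of the phosphate regulon, is the nearest gene with a probe on the side of *IMD2* away from the chromosome end. It rose, with signals of -2.55, -2.42 and -2.53, against -2.90, -2.88 and -2.77 in YΔG/XK/XI. Its log2 difference was 0.35 (adjusted p = 0.00985, limma), opposite in sign to that of *IMD2*, and *PHO12* lost its call only with quantile normalization (adjusted p = 0.0519). It also has a near-identical copy, *PHO11*. On the other side, toward the chromosome end, YHR219W fell by 0.44 (adjusted p = 0.00439) and YHR218W had a log2 difference of -0.30 (adjusted p = 0.130, but -0.43 and 0.0358 without run 3 of YΔG/XK/XI). Both lie in repeated subtelomeric sequence, so their probes may read several loci. YHR214W exceeded background on 0 of the 6 arrays.

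*IMD3* and *IMD4* each lie beside a calcineurin catalytic subunit gene, *CNA1* and *CMP2*, a pair of paralogs themselves. The log2 difference was 0.12 for *CNA1* (adjusted p = 0.245, limma) and -0.17 for *CMP2* (adjusted p = 0.166). Of the other neighbours of *IMD3*, *TSR2*, a factor for small ribosomal subunit maturation, rose by 0.42 (adjusted p = 0.00861). The nearer neighbours of *IMD4* besides *CMP2*, *SML1* and *SPC2*, had 0.09 (adjusted p = 0.344) and 0.23 (adjusted p = 0.160). *CYB2*, which encodes the mitochondrial lactate dehydrogenase, lies near *IMD4* and fell by 0.63 (adjusted p = 0.0172, but 0.0658 without run 1 of YΔG/XK/XI). *GAS3*, a gene of the Gas family of cell wall glucanosyltransferases near *GUA1*, rose by 0.49 (adjusted p = 0.00213). The genes next to *GUA1* on either side, *SKY1* and *TRS130*, and the further *ESC1* were not called, with log2 differences of -0.17 (adjusted p = 0.192), 0.32 (adjusted p = 0.0990) and -0.11 (adjusted p = 0.319). *TRS130* passed the threshold without run 2 of YΔGP/XK/XI (0.47, adjusted p = 0.00811) and with the replicate number as a block (adjusted p = 0.0331).

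**Figure D4:**
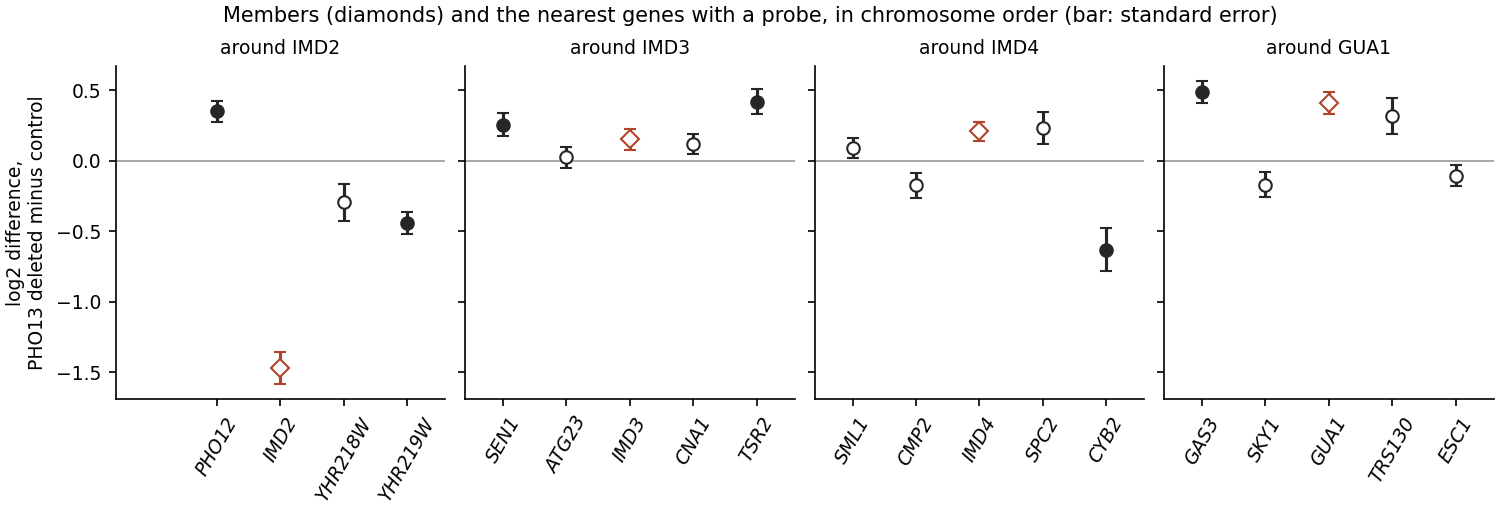
Log2 difference, YΔGP/XK/XI minus YΔG/XK/XI, of each member (diamonds) and its nearest genes with a probe above background on any array, in chromosome order. Bars are standard errors, and filled circles have an adjusted p under 0.05 (limma). *IMD2* (-1.47) stands between *PHO12* (0.35) and YHR218W (-0.30).

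At an adjusted p under 0.05, the share of all genes called was 29.6%, with 16.5% higher and 13.1% lower. These were 1033 genes higher and 819 lower, or 838 higher and 1137 lower when each array was scaled to its median. Without run 1 of YΔG/XK/XI 691 were higher and 487 lower. The genes that bring purines to the members, or use their product, were grouped by role into 7 lists of 54 genes in all, each with a probe. Of these, 9 were called higher and 12 lower, or 38.9%. Without run 1 of YΔGP/XK/XI 4 were called higher and 7 lower, and without run 1 of YΔG/XK/XI 4 were called higher and 6 lower.

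After GMP, the kinases lead to GTP. *YNK1*, the nucleoside diphosphate kinase gene, rose by 0.34 (adjusted p = 0.0182, limma). Leaving out 1 array ended its call in 4 of 6 cases, run 2 of YΔGP/XK/XI and run 3 of YΔG/XK/XI being the exceptions (adjusted p 0.0580 to 0.0751 in the 4). *GUK1*, the guanylate kinase gene, had a log2 difference of 0.18 (adjusted p = 0.0672) without overlap between the strains. Both genes were called higher when the variance was allowed to follow the signal.

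IMP is also the source of AMP. Among the 5 genes of this branch only *ADK1*, the cytosolic adenylate kinase gene, was called, though quantile normalization added 1 called lower. Its signals were 1.76, 1.87 and 1.55 in YΔGP/XK/XI, against 0.95, 1.23 and 0.90 in YΔG/XK/XI, a log2 difference of 0.70 (adjusted p = 0.00304, limma). *ADE12*, which encodes the enzyme that competes with IMP dehydrogenase for IMP, had a log2 difference of -0.22 (adjusted p = 0.103). *AMD1*, the AMP deaminase gene that returns AMP to IMP, had -0.02 (adjusted p = 0.921).

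Of the 13 genes for purine salvage and uptake, 3 rose and 3 fell. *APT1*, the adenine phosphoribosyltransferase gene, rose by 0.49 (adjusted p = 0.00354, limma). *AAH1*, which encodes the adenine deaminase that makes hypoxanthine, rose by 0.32 (adjusted p = 0.0192). Of those that fell, *GUD1*, the guanine deaminase gene, had a log2 difference of -0.36 (adjusted p = 0.0127) and *PNP1*, the purine nucleoside phosphorylase gene, had -0.35 (adjusted p = 0.0117). Without run 1 of YΔG/XK/XI the calls of *AAH1* (adjusted p = 0.0737) and *GUD1* (0.0588) were lost, and without run 1 of YΔGP/XK/XI that of *AAH1* (0.0686). The call of *AAH1* was also lost with quantile normalization (0.25, adjusted p = 0.0627). *GUD1* lies close to *PHO13* on its chromosome. *HPT1* and *XPT1*, which encode the phosphoribosyltransferases for hypoxanthine and xanthine, had log2 differences of 0.03 (adjusted p = 0.789) and -0.02 (adjusted p = 0.821).

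In the list for IMP synthesis from the beginning, with its activators *BAS1* and *PHO2*, 1 of 10 genes was called, and 2 were called lower with median scaling, an intensity trend, or a block for replicate or slide. *ADE8*, the glycinamide ribotide transformylase gene, fell by 0.27 (adjusted p = 0.0181, limma), a call lost without run 1 of YΔGP/XK/XI (0.0684) or run 1 of YΔG/XK/XI (0.0704). The log2 differences of the 10 ran from -0.27 to 0.10. In the list for one-carbon supply, which feeds that pathway, 4 of 7 genes fell and none rose. They were *SHM1* (-0.38) and *SHM2* (-0.33), the serine hydroxymethyltransferase genes, *GCV1* (-0.34) of glycine cleavage, and *ADE3* (-0.32). Their adjusted p was between 0.00956 and 0.0226 (limma). *SHM1* and *SHM2* kept their calls with any 1 array left out. *ADE3* lost its call without run 1 of YΔGP/XK/XI (0.0544) or of YΔG/XK/XI (0.0532), and *GCV1* in 4 of 6 cases, without run 2 or 3 of YΔGP/XK/XI or run 1 or 3 of YΔG/XK/XI (0.0544 to 0.0903).

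The 11 genes listed for start-site choice and early termination at *IMD2* went in both directions, with 3 called higher and 2 lower. *SUA7*, which encodes TFIIB, a factor for start-site choice, fell by 0.49 (adjusted p = 0.00157, limma). *SSU72*, a phosphatase gene of the termination machinery, rose by 0.56 (adjusted p = 0.0101). *PAP2*, the poly(A) polymerase gene of the surveillance complex that degrades short transcripts, rose by 0.41 (adjusted p = 0.0199), but not without run 1 or 2 of YΔGP/XK/XI (0.0588 and 0.0518) or run 1 of YΔG/XK/XI (0.0650). *SEN1*, the helicase gene, which also neighbours *IMD3*, rose by 0.26 (adjusted p = 0.0488) and lost its call whichever array was left out (adjusted p 0.0599 to 0.129) and with normexp, quantile normalization, median scaling or the replicate block (0.0507 to 0.0928). *NRD1* and *NAB3* had log2 differences of 0.03 (adjusted p = 0.856) and -0.22 (adjusted p = 0.0902). RNA on the array does not report their activity at *IMD2*, which was not measured.

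Of 6 genes whose enzymes use GTP or handle GDP-mannose, *PSA1* had the largest difference. *PSA1* encodes the enzyme that makes GDP-mannose from GTP for protein mannosylation. Its signals were 2.15, 2.35 and 2.11 in YΔGP/XK/XI, against 1.09, 1.14 and 1.08 in YΔG/XK/XI. The log2 difference was 1.10 (adjusted p = 6.82e-05, limma). *PSA1* and *PAP2*, and *CLB4* named below, are in the study's own lists of cell cycle genes, which were drawn up on these samples. *RIB1*, the GTP cyclohydrolase gene for riboflavin, fell by 0.35 (adjusted p = 0.00902) and *CEG1*, the mRNA capping guanylyltransferase gene, by 0.28 (adjusted p = 0.0209). *CEG1* lost its call without run 1 or 3 of YΔGP/XK/XI or run 2 or 3 of YΔG/XK/XI (0.0505 to 0.0713). *FOL2*, the GTP cyclohydrolase gene for folate, had a log2 difference of -0.10 (adjusted p = 0.599).

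**Figure D5:**
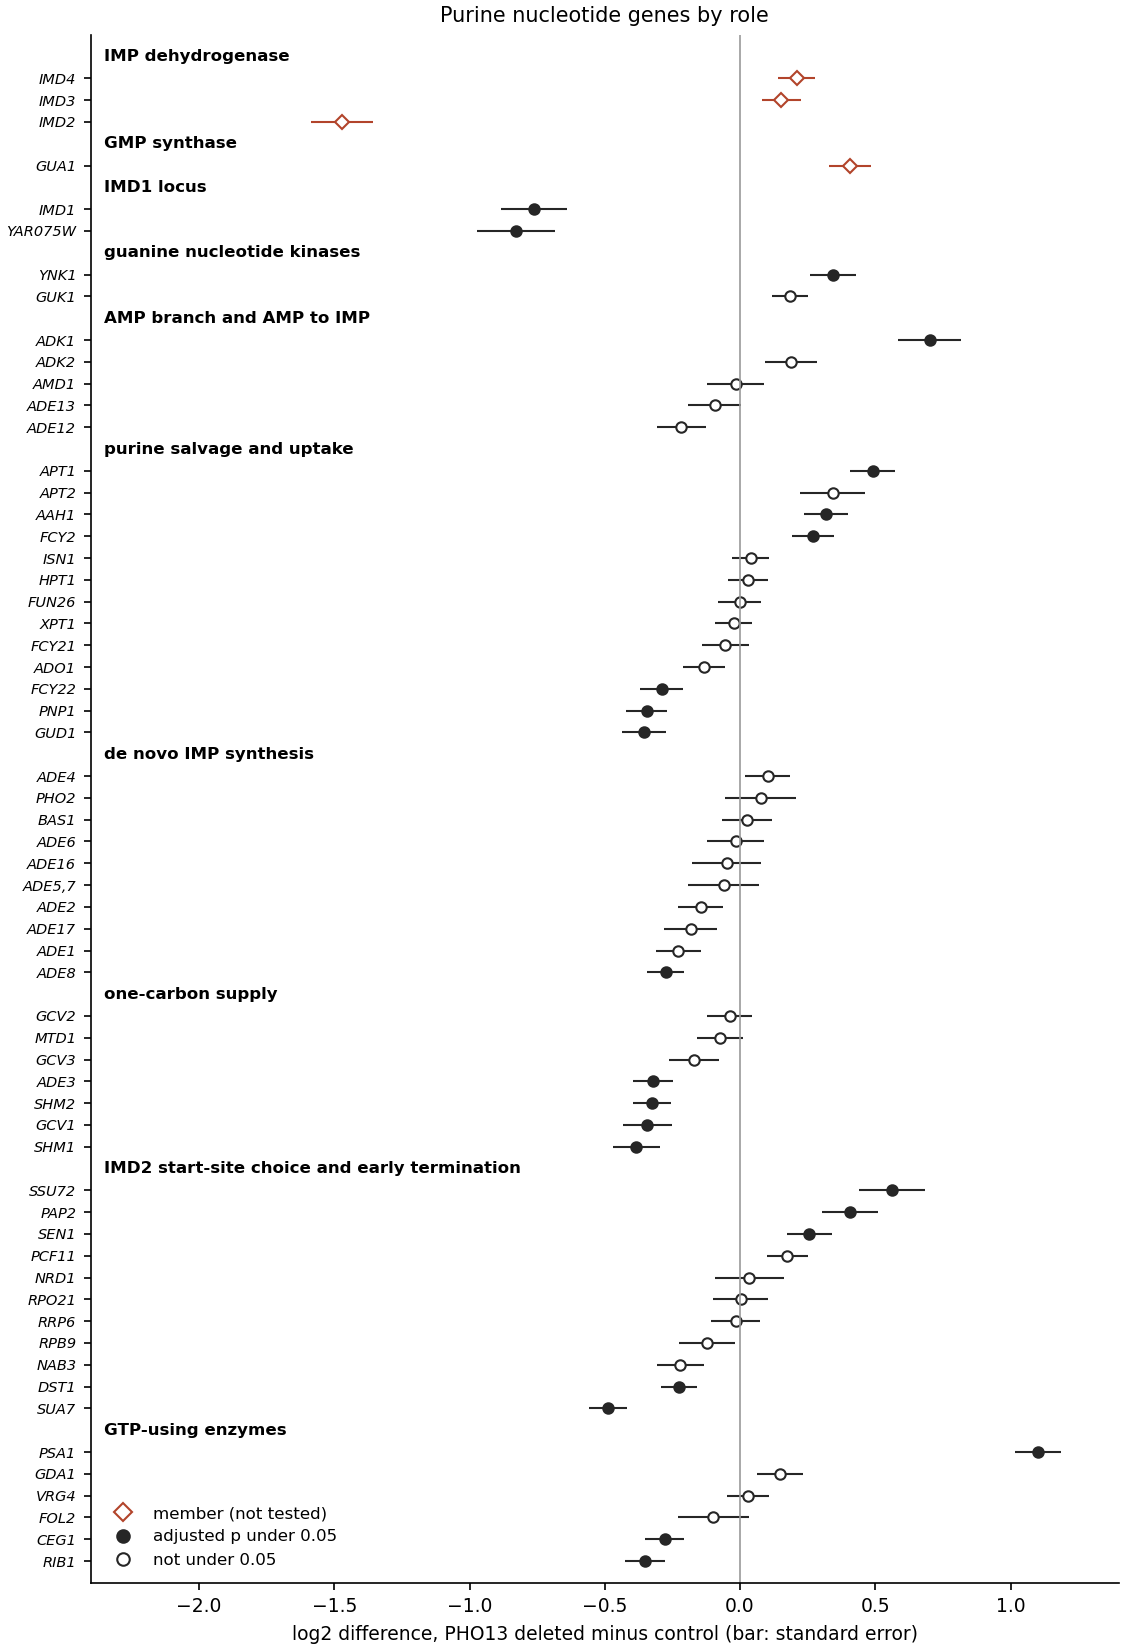
Log2 difference, YΔGP/XK/XI minus YΔG/XK/XI, of the members (diamonds, not tested), the *IMD1* locus and the 54 listed genes by role. Bars are standard errors, and filled circles have an adjusted p under 0.05 (limma). *IMD2* (-1.47) lies below every listed gene, which run from -0.49 to 1.10.

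The genes most like each member were sought by Pearson's r of the normalized log2 signal over the 6 arrays, among 5887 other probes well above background on all of them. This r includes the difference between the strains, so it describes these arrays and was not tested. For *IMD2* they were *CLB4*, a B-type cyclin gene (0.999), *MMT2*, a mitochondrial metal transporter gene (0.997), and YDL129W (0.996). They fell by 0.63, 0.49 and 0.75, less than *IMD2*. For *IMD3* they were *FLC2* (0.992), YLR198C (0.989) and *RDS1* (0.987). For *IMD4* they were *NTO1* (0.999), *RPL22B* (0.998) and *RLI1* (0.997), and for *GUA1* they were *RPL11A* (0.999), *PEX25* (0.998) and *RPL19B* (0.996). Among the 6 genes for *IMD4* and *GUA1*, *RPL22B*, *RPL11A* and *RPL19B* encode proteins of the large ribosomal subunit, and they rose by 0.64, 0.67 and 0.65. The share of ribosomal protein genes that rose on these arrays was not counted, so no link to these members is drawn.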

How the data were processed

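Total RNA of 3 runs of xylose fermentation per strain was labelled with Cy3 and hybridized to single-colour Agilent yeast arrays, read with Agilent Feature Extraction 10.1.1.1 per the file headers. The authors deposited, for each spot, a background-subtracted intensity and the median raw and background intensities, without scaling between arrays. They also deposited a table of log2 values, stated to be normalized per chip, which matched the intensities after scaling to the 75th percentile and centring of each probe (r of 0.9999 or above). Control spots and outlier spots were left out here, the 7 spots of a probe were averaged as log2, and the 75th percentile was subtracted. A probe was well above background when at least 4 spots were flagged so. The bound for *PHO13* sets the YΔG/XK/XI mean against, on each YΔGP/XK/XI array, the higher of its own signal and the lowest signal among probes well above background.

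Strain differences were fitted with limma 3.58.1 (R 4.3.3), and p-values were adjusted by Benjamini-Hochberg over 6256 genes. The labels do not say whether the runs were separate cultures, so p-values measure only the spread between these samples. On simulated data for this comparison over 6256 genes, 72 of 100 genes changed by 0.5 and 96 of 100 changed by 1 on the log2 scale were found. There were 7 false calls. The simulated noise was independent, without slide or run effects, and far fewer genes were changed than were called in the data, so these shares may not hold here. Alternatives were other background, scaling, spot and variance settings, blocks for replicate and slide, the deposited table, and each array left out. The members and gene lists were chosen with earlier results of these data known. In each list the 4 called genes of largest difference at most, the 2 nearest genes on each side of a member and the 3 genes most like it were named, and some uncalled genes were named for their role after their values were seen. Names and neighbours come from R64, which held 5756 of the 6256 systematic names. The build of the probes is not given in the sources used here, so no coordinates or sequences are printed.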

Additional observations from a re-analysis of the deposited data

How the results depend on the processing

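No member changed direction under any alternative. The normexp background correction, with its offset of 50 units, moved *IMD2* most, to a log2 difference of -1.02. With it the ratio of *IMD2* over *IMD3* moved to -1.18, over *IMD4* to -1.21 and over *GUA1* to -1.40. The change of input signal, the background model and the offset were not tested apart. *IMD4* was 0.147 with quantile normalization and 0.149 with median scaling, and on slide 2 *IMD3* was 0.225 and *GUA1* was 0.505. With an array left out, *IMD2* ranged from -1.56 to -1.35, *IMD3* from 0.11 to 0.20, *IMD4* from 0.18 to 0.23 and *GUA1* from 0.37 to 0.45. Of the listed genes, 4 to 8 were then called higher and 6 to 10 lower, and over all genes 691 to 963 higher and 487 to 698 lower, the fewest without run 1 of YΔG/XK/XI. *ATG23*, next to *IMD3* with a log2 difference of 0.03 (adjusted p = 0.816, limma), changed sign in 5 alternatives, to -0.00932 with normexp, -0.0675 with quantile normalization, -0.0342 with median scaling, -0.00159 without run 2 of YΔGP/XK/XI and -0.0148 without run 2 of YΔG/XK/XI, the lowest of the values with an array left out, of which the highest was 0.0635. The cause of these shifts was not tested.

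Same-numbered runs of the strains were partly alike, with correlations of their deviations of 0.0656, 0.301 and 0.415 for runs 1, 2 and 3. For runs 2 and 3 these exceeded the correlations with other runs. Run 1 of YΔGP/XK/XI resembled run 2 of YΔG/XK/XI (0.130) more than run 1. The main fit has no term for run or slide, and with a slide block 1275 genes were called higher and 1026 lower. With a replicate block the member differences were the same by construction, with *IMD2* at -1.47, and 9 listed genes were called higher and 13 lower, against 1295 and 1067 over all genes. Of the genes named, *TRS130* gained (adjusted p = 0.0331, limma) and *SEN1* lost (adjusted p = 0.0507) its call with the block. YLR198C, with a log2 difference of 0.36 (adjusted p = 0.0622, limma), also gained its call (adjusted p = 0.0482). It gained a call in 6 of 16 alternatives, among them normexp, quantile normalization and the slide block. Dim signal limits *IMD2* and the *IMD1* probes, and 3 arrays per strain limit every value.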
